A study of Caenorhabditis elegans with 2 samples.

Results

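The regions described here are stretches of the *C. elegans* genome listed from ChIP-seq of GFP-tagged ELT-4, with a summit within 500 bp of a tRNA gene. They were chosen from the list made from both replicates pooled. The rule was the distance of the summit from any gene of biotype tRNA in the Ensembl annotation of WBcel235, the assembly that ce11 names. The pooled list is deposited as peaks and background, the input for an irreproducible discovery rate (IDR) filter. A listed region is thus not by itself a peak, and 4.26% of the list had a deposited q-value of at most 0.05. The choice of regions used positions and no signal, and it gave 401 of 30000 pooled regions, 1.34%. The same rule gave 330 of the 30000 regions of the replicate 1 list and 391 of the 30000 regions of the replicate 2 list. The data were ChIP-seq of a single group, named ELT-4-GFP late embryo: hermaphrodite whole embryos of strain OP111 (unc-119(ed3) III; wgIs111), late embryonic, taken 3 hours after synchronization by bleaching, in 2 biological replicates. Per the labels, both replicates carry an integrated transgene that makes ELT-4 with GFP and FLAG at its C terminus, and the precipitation used an antibody against GFP, although another label field gives elt-4 as the antibody. Both replicates come from that 1 line, no group without the transgene is part of the design, and whole embryos mix all cell types. The control library was not analysed here and the sequencing depth is unknown.

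ELT-4 belongs to the GATA family of zinc finger transcription factors. Worm GATA factors are known for their work in the intestine and the epidermis, where they bind sites built around the letters GATA. tRNA genes are a different kind of gene. They are short, are transcribed by RNA polymerase III, and carry their promoter inside the gene as the A box and the B box, which the factor TFIIIC binds; transcription ends at a run of T just after the gene. Many worm tRNA genes are exact copies of one another, and short reads from exact copies cannot be assigned to a single copy from the copied letters alone.

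The annotation held 612 tRNA genes of 200 different sequences on the nuclear chromosomes, and 276 of them, 45.1%, were on X. The B box letters GTTCNANNC occurred in 587 of the 612 genes, and the A box letters TGGNNNAGT or TAGNNNAGT in 384. A run of TTTT began within 50 bp after the gene in 605 of the 612, at a median of 5 bp. The genes below lie at strong regions and are shown as examples of the gene with its internal boxes. The A box and B box letters that were found are in capitals, the rest in lower case, 5′ to 3′ on the strand of the gene, from the WBcel235 genome.
F15G9.t1, alanine, chrX:9743589-9743660, plus strand: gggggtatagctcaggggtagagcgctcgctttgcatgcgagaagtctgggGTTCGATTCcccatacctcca
C04A11.t1, leucine, chrX:13665555-13665673, plus strand: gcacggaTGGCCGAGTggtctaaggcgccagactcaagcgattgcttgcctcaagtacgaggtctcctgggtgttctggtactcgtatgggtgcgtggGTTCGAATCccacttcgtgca
F57F5.t1, isoleucine, chrV:12002176-12002260, plus strand: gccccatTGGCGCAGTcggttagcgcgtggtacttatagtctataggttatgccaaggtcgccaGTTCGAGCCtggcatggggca
F28H6.t1, arginine, chrX:14115691-14115763, plus strand: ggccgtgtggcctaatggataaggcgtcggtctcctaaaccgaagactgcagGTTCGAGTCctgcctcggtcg
Y65A5A.t4, histidine, chrIV:16400896-16400967, plus strand: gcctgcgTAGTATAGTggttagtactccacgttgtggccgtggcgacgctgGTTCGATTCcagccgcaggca
K06A4.t1, alanine, chrV:9503562-9503633, plus strand: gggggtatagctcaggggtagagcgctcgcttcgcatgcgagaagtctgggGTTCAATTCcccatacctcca

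In these genes the B box letters began at base 52 in F15G9.t1, Y65A5A.t4 and K06A4.t1, at base 53 in F28H6.t1, at base 65 in F57F5.t1 and at base 99 in C04A11.t1, counted from 1 at the 5′ end of the gene. C04A11.t1 has 119 bases and F57F5.t1 has 85. F15G9.t1 was 1 of 8 genes with exactly the same letters, and K06A4.t1, another alanine gene, differed from it at 2 of 72 positions and had no exact copy. F15G9.t1, F28H6.t1 and K06A4.t1 held neither form of the A box letters that was searched, which says only that those letters are not there.

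The tRNA-near regions had higher signals than the list as a whole. Signal is the deposited value of each region, from the authors' peak calling and on a scale that is not stated; it serves here to rank and describe regions within a list. The median was 35.7 over the 401 tRNA-near regions, with quartiles of 26.98 and 49.5 and a maximum of 165, against a median of 30.5 over all 30000. Of the 401, 23 were among the 342 peaks that the authors kept after an irreproducible discovery rate (IDR) filter, 5.74% (exact 95% interval 3.67 to 8.48%), against 1.14% of all pooled regions. The IDR peaks were the 342 pooled regions of highest signal. A deposited q-value of at most 0.05 was reached by 56 tRNA-near regions, 14.0% (10.7 to 17.7%), against 4.26% of all pooled regions. The intervals cover the counting of regions only: regions are not replicates, all come from the same 2 libraries, and no test across samples was possible with 1 group. Most tRNA-near regions did not reach that q-value.

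The signal was highest within 100 bp of the tRNA gene. The summit lay inside a tRNA gene in 120 of the 401 regions, upstream of the nearest one in 126 and downstream in 155. Inside the genes the median signal was 43.5, and 27 of 120 regions reached a q-value of 0.05. From 1 to 50 bp away the median was 39.9 with 17 of 71 regions, and from 51 to 100 bp it was 37.5 with 7 of 52. From 101 to 150 bp it was 29.7 with 2 of 33, and from there outward every step of 50 bp up to 500 bp held at most 1 such region. The medians of those outer steps ran between 27.2 and 32.2, close to the 30.4 of all regions over 500 bp from a tRNA gene.

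**Figure D1:**
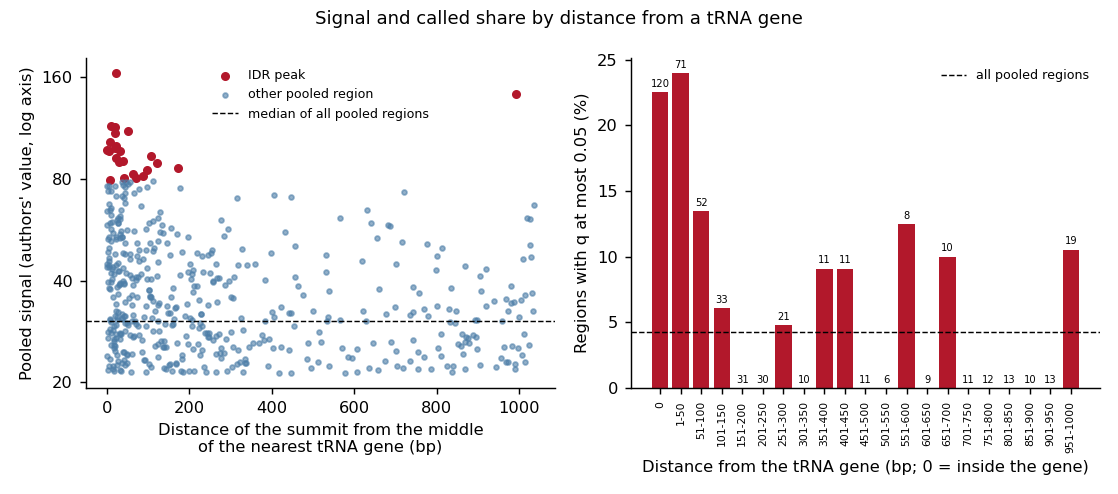
Left, pooled signal of each region within 1000 bp of a tRNA gene (log axis) against the distance of its summit from the middle of the gene; red points are IDR peaks and the dashed line is the median of all pooled regions. Right, percentage of regions with a q-value of at most 0.05 by distance from the gene, with the number of regions above each bar and the share of all pooled regions as a dashed line: the bars at 0, 1 to 50 and 51 to 100 bp stand above 13%, while outer steps with bars above the line hold 1 or 2 such regions each.

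After these values had been seen, the members were split at 100 bp. The 243 regions within 100 bp had a median of 40.6, with 22 IDR peaks and 51 regions at a q-value of 0.05, 21.0% (16.04 to 26.7%). The 158 regions from 101 to 500 bp had a median of 30.4, with 1 IDR peak and 5 such regions, 3.16% (1.04 to 7.23%). At the edge of the rule nothing stood out: the 11 regions from 451 to 500 bp ran from 22.01 to 47.5 with a median of 28.2, and the 6 regions from 501 to 550 bp ran from 21.4 to 61.3 with a median of 27.9. None of these regions reached a q-value of 0.05. The last region inside, at 500 bp from W03C9.t1, had a signal of 31.3, and the first outside, at 502 bp from F22G12.t2, had 37.2.

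In each replicate list, regions within 100 bp of a tRNA gene also had the higher median, but the fall with distance differed. In replicate 1, the median of the 330 tRNA-near regions was 19.4 against 16.4 for its whole list, and in replicate 2 the median of the 391 was 21.3 against 18.3. Within 100 bp of a tRNA gene the medians were 21.6 in replicate 1 (210 regions) and 23.4 in replicate 2 (224 regions). From 101 to 500 bp they were 15.9 in replicate 1 (120 regions) and 19.6 in replicate 2 (167 regions). In replicate 1 the median was 23.8 inside genes and 20.4 from 1 to 50 bp, and in replicate 2 it was 23.9 and 24.4. A q-value of at most 0.05 was reached by 57 of the 330 in replicate 1, 17.3% against 4.87% of that list, and by 32 of the 391 in replicate 2, 8.18% against 3.01%. Among as many strongest regions as there were IDR peaks, replicate 1 held 28 tRNA-near regions, 8.48% against 1.14%, and replicate 2 held 16, 4.09% against 1.14%. The direction was shared, and each share was higher in replicate 1 than in replicate 2.

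**Figure D2:**
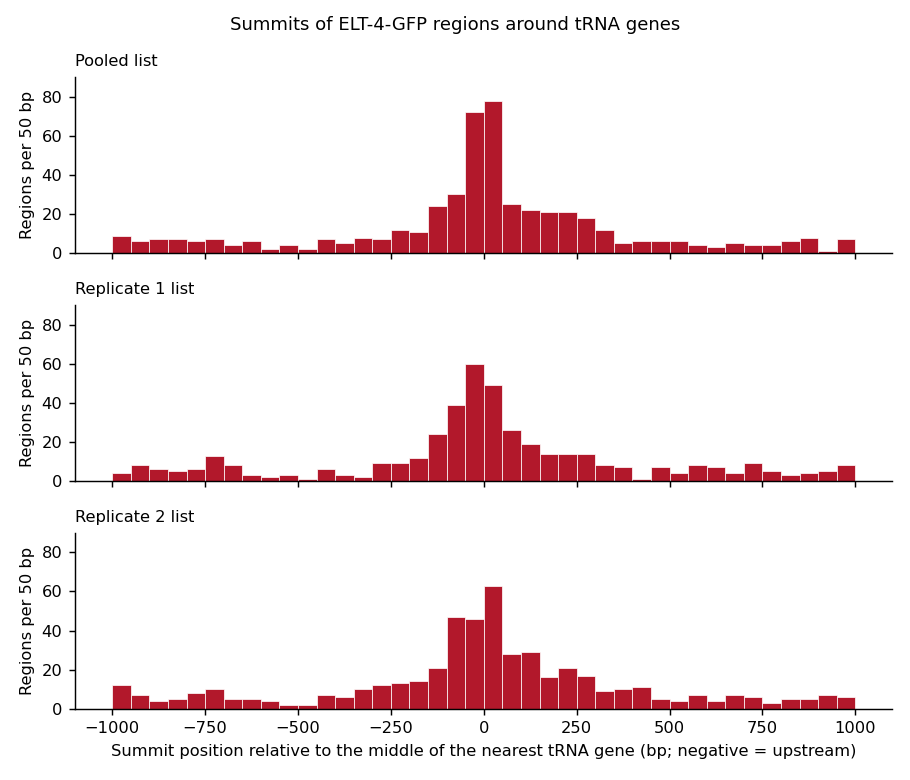
Number of regions per 50 bp by the position of the summit relative to the middle of the nearest tRNA gene (bp, negative is upstream), in the pooled list and in each replicate list. All 3 panels peak at the gene; within 100 bp of a gene the median position was 0.5 bp in the pooled list, -16.2 bp in replicate 1 and 2.0 bp in replicate 2.

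Positions are known only coarsely. The summit was the middle base of the region in all 401 tRNA-near regions, and regions had a median length of 470 bp. A summit here is thus the centre of its region, and whether it also marks a measured maximum is not known. Where a tRNA-near region had a match in both replicate lists, the summits of the matches lay a median of 77 bp apart, against 108 bp over all matched regions. Among the 243 regions within 100 bp of a gene, 65 summits were upstream, 120 inside and 58 downstream. In replicate 1 these counts were 73, 91 and 46, and in replicate 2 they were 68, 97 and 59, so the replicates differed in how far upstream summits outnumbered downstream ones. The choice of summits within 100 bp itself bounds these positions.

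A region in both replicate lists was found for 282 of the 401 tRNA-near regions by an overlap of at least 1 bp, 70.3% (65.6 to 74.8%), against 55.9% of all pooled regions. Of the others, 45 matched a region of replicate 1 only, 69 of replicate 2 only, and 5 neither. The share found in both lists was 69.1% within 100 bp of a gene and 72.2% from 101 to 500 bp, where the signal was lower. Y105C5B.t4, an aspartate gene, had a pooled signal of 54.9 and a replicate 2 signal of 43.6 with no replicate 1 region. M01E5.t1 had a pooled signal of 42.8 and a replicate 1 signal of 31.9 with no replicate 2 region. Across the 282 matched regions Spearman's rho between the replicate signals was 0.487, against 0.312 across all 16769 matched regions. These correlations are over regions of the same 2 libraries, and 131 members share a replicate 1 region with another member. Both replicate signals were above their list medians in 186 of the 282, 66.0%, against 49.96% of all matched regions.

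**Figure D3:**
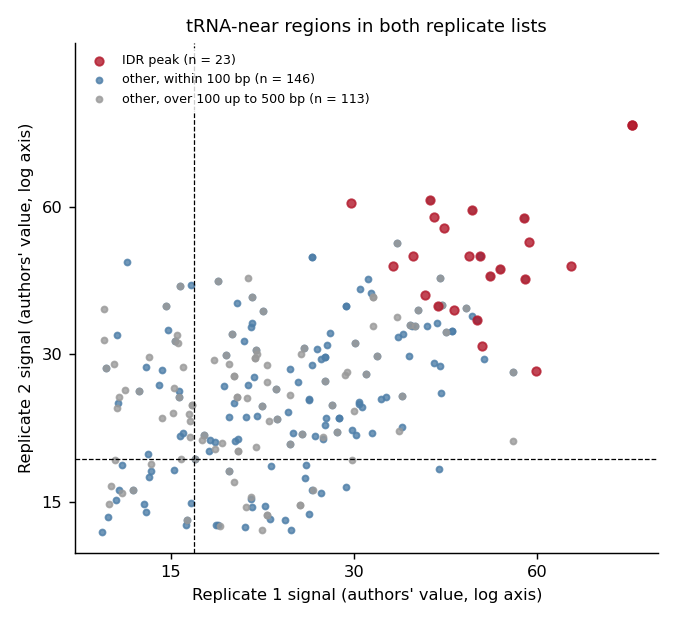
Replicate 2 signal against replicate 1 signal (log axes, authors' values) of the 282 tRNA-near regions with a match in both lists, with dashed lines at the medians of the whole lists, 16.4 and 18.3. The 23 IDR peaks lie at the upper right, above both medians, and points below a dashed line belong to other regions.

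The 23 IDR peaks near tRNA genes lay at 22 places, since 2 overlapping regions at F15G9 share their replicate regions. They lay within 500 bp of 25 tRNA genes for 14 amino acids. The summit was inside the gene in 13 and within 100 bp in 22. Their ranks ran from 9 to 314 of 30000 in the pooled list, from 7 to 1945 in replicate 1 and from 9 to 4041 in replicate 2. Of the 23, 17 overlapped a region among the strongest of replicate 1 and 14 among the strongest of replicate 2; 9 did so in both replicates and 1 in neither. Over all members, 12 overlapped the strongest regions of both replicates, 2.99% against 0.51% of pooled regions. Those 12 were the 9 IDR peaks and weaker flanking regions at W02H3.t1, C28G1.t1 and W03G11.t1 that overlap the same replicate regions.

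The strongest tRNA-near region, chrX:9743367-9743836, had a pooled signal of 165 and covered the alanine genes F15G9.t1 and F15G9.t2, 87 bp apart inside him-4, the gene of the extracellular matrix protein hemicentin, where they occupy an intron. Its signal was 85.9 in replicate 1 and 88.1 in replicate 2, ranks 7 and 9 of the 2 lists. The next, at the aspartate gene F38G1.t2 in an intron of egl-17, a fibroblast growth factor gene, had a pooled signal of 114, with 58.3 in replicate 1 and 50.8 in replicate 2. C04A11.t1, a leucine gene in intergenic sequence, also had 114, with 68.2 and 45.6 in replicates 1 and 2. These places were high in both lists.

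C28G1.t1, a glutamate gene, had a pooled signal of 111 and 57.2 and 57.1 in replicates 1 and 2. F57F5.t1, an isoleucine gene with no exact copy, had 109 and was stronger in replicate 2, at 62.0, than in replicate 1, at 40.02. ZC455.t1, a serine gene, had 103, with 57.3 in replicate 1 and 42.8 in replicate 2. The remaining IDR peaks had pooled signals from 79.5 to 100.1.

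Other IDR peaks were carried more by 1 replicate than by the other. At the proline gene ZK899.t1, with a pooled signal of 90.5, the signal was 59.8 in replicate 1 and 27.8 in replicate 2, where it ranked 4041. At the arginine gene F28H6.t1, with 88.9, it was 29.7 in replicate 1, rank 1945, and 61.1 in replicate 2, rank 48. The valine gene Y7A9D.t3 was the single IDR peak over 100 bp from its gene, with a summit 136 bp downstream, a pooled signal of 86.2, and 47.9 and 35.2 in replicates 1 and 2. T26C11.t1, a glutamate gene, fell just below the IDR peaks at rank 345 with 78.6.

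The IDR peaks in introns lay in host genes of different kinds. E03E2.t1, a serine gene with a signal of 80.3, lies in an intron of cat-1, the vesicular monoamine transporter gene. F41D9.t3, an asparagine gene with 96.98, lies in an intron of sulp-3, a gene of the sulfate permease family. The tryptophan gene sup-5, with 92.5, lies in an intron of fli-1, the worm homologue of flightless. Of the 23, 8 had their summit in an intron, 14 in intergenic sequence, 1 in an exon outside coding sequence and none in coding sequence. Among all 401 members 82 were in coding sequence, 137 in introns and 173 intergenic. Coding sequence held 38.7% of all pooled regions and 40.9% of all IDR peaks. None of the 120 summits inside a tRNA gene lay in coding sequence, so the place of a summit follows in part from its distance to the gene.

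Per gene, 359 of the 612 tRNA genes had a pooled region within 500 bp, 58.7% (54.6 to 62.6%). Of the 612, 248 had a region in both replicate lists, and 238 of those also had a pooled region. No region of any of the 3 lists lay within 500 bp of 171 genes. The lists give no value outside their regions, so a gene without a region has no value here rather than a value of 0. The pooled list includes background, and 61 of the 612 genes, 9.97%, had a pooled region with a q-value of at most 0.05. The share with a region was 73.4% on chromosome III, 47 of 64, and 51.5% on chromosome I, 34 of 66. It was 55.4% on X, 153 of 276, against 61.3% on the autosomes, 206 of 336. Genes with another tRNA gene within 500 bp had a region in 51.2%, 87 of 170, and genes without such a neighbour in 61.5%, 272 of 442. It was 63.0% for genes in introns, 179 of 284, and 55.1% for intergenic genes, 177 of 321.

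Regions were found at genes for every standard amino acid. The share of genes with a region ran from 45.0% for asparagine, 9 of 20, to 70.4% for aspartate, 19 of 27, and the intervals of these shares overlap (23.1 to 68.5% and 49.8 to 86.2%). The strongest region of each gene had the highest median at methionine genes, 51.8 over 12 genes with a region, followed by asparagine at 48.99 over 9 and aspartate at 48.1 over 19. It was lowest at phenylalanine genes, 30.2 over 8, and glutamine genes, 30.3 over 16. Among genes with a region, 0 of 16 glutamine, 0 of 8 phenylalanine and 0 of 11 tyrosine genes had one with a q-value of at most 0.05, whereas 7 of 24 serine and 6 of 22 alanine genes did, against 61 of all 359 genes with a region, 17.0%. These groups are small, and the difference between amino acids was not tested. Values within an amino acid were widely spread: alanine genes alone ran from 21.4 to 165, while the medians of the amino acids ran from 30.2 to 51.8. The gene for selenocysteine tRNA had no pooled region.

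**Figure D4:**
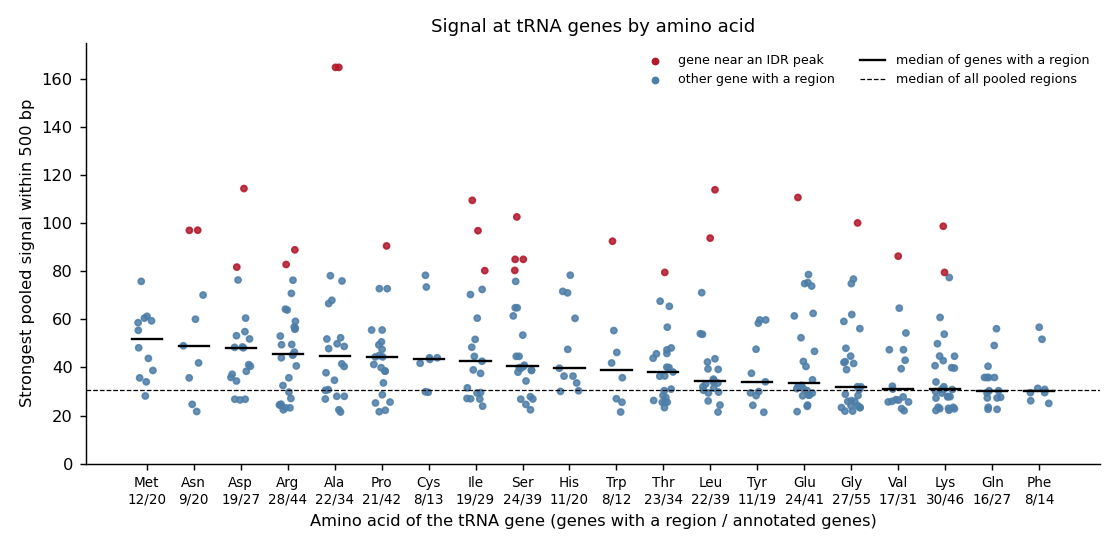
Strongest pooled signal within 500 bp of each tRNA gene that has a region, by the amino acid of the tRNA, ordered by median from methionine, 51.8, to phenylalanine, 30.2; genes with a region and annotated genes stand under each name. Points are genes (2 genes near the same region share its value), red points are genes near an IDR peak, bars are medians, and every amino acid has points near the median of all pooled regions, 30.5.

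Genes with exactly the same letters differed in their regions, and single copies are given here as examples. The pooled signal was 165 at F15G9.t1 on X. Of other copies with its letters, B0491.t1 and B0491.t2 on chromosome II shared a region of 28.0, and T07H6.t1, Y105C5A.t2, Y37A1B.t1 and Y38E10A.t1 had no pooled region. T07H6.t1 and Y105C5A.t2 had no region in either replicate list. The strongest copy and a copy without a region are shown with 60 bp on each side, on the strand of the gene, to set the same gene in different flanks; the tRNA gene is in capitals and the flanks in lower case.
F15G9.t1 (signal 165), chrX:9743529-9743720, plus strand: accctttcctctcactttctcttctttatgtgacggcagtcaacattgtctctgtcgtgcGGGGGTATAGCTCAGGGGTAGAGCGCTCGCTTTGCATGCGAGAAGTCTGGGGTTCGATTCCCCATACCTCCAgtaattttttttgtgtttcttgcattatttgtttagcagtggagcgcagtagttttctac
T07H6.t1 (no region), chrX:6286261-6286452, plus strand: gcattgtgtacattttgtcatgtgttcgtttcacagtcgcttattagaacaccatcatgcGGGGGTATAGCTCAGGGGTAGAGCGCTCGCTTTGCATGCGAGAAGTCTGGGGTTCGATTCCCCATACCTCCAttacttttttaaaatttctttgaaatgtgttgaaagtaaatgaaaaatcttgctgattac

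Both copies have TTTT starting 5 bp after the gene, and their flanks otherwise differ. The histidine genes gave the same kind of contrast. Of 11 identical genes, Y65A5A.t4 on chromosome IV had 78.3 (42.5 and 33.3 in replicates 1 and 2), W09G10.t1 on II had 71.6 (32.3 and 39.3) and C06G1.t1 on X had 71.0 (31.9 and 40.1). The region at W09G10.t1 had its summit 369 bp from the gene. Of the 6 copies at F28H6, which lie close together on X, F28H6.t4 and F28H6.t5 shared a region of 36.4 and the other 4 had none in any list. The sequences below show the strongest histidine copy and 1 copy without a region, marked in the same way.
Y65A5A.t4 (signal 78.3), chrIV:16400836-16401027, plus strand: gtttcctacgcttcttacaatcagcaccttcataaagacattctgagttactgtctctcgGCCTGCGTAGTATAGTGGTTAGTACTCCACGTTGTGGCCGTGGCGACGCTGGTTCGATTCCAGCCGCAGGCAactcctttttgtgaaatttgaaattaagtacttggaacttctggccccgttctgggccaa
F28H6.t2 (no region), chrX:14134985-14135176, plus strand: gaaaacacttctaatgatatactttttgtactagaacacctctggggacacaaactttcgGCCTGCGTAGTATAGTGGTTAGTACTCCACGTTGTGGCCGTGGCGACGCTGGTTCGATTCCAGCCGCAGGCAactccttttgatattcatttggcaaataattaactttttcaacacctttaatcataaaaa

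In Y65A5A.t4 and F28H6.t2 the gene is followed by TTTT at 6 bp, and the letters between gene and TTTT are the same. In the 20 sets of at least 10 identical genes, with each region counted for its nearest tRNA gene only, the strongest gene exceeded the weakest gene with a region by 1.92 to 5.12 times. When every region within 500 bp was counted, the upper end was 7.69 times, in the alanine set of F15G9.t2, because the region of 165 has its summit in the neighbour F15G9.t1, whose letters differ; the region nearest to F15G9.t2 had 89.9. The 29 identical glycine genes had 13 with a region, from 21.8 to 100.1. The 21 identical aspartate genes had 14, from 26.8 to 114. Reads that fall wholly inside such genes cannot be told apart by letters, and how the authors treated them is not given in the sources used here, so part of these values may be shared between copies; this was not tested.

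The tryptophan set includes genes known from genetics, since mutant alleles of sup-5 and sup-7 read amber stop codons. Of its 10 identical genes, 7 had a region. sup-5 had 92.5, with 42.2 in replicate 1 and 54.4 in replicate 2. sup-29 had 55.3 (26.5 and 29.4), sup-7 had 46.2 (29.1 and 16.1) and rtw-6 had 26.98 (11.5 and 13.0). sup-24 had 35.7, with 19.1 in replicate 1 and no replicate 2 region. sup-21, sup-28 and sup-33 had no pooled region. Thus sup-5 was high in both replicates while sup-7, with the same letters, was above the list median in replicate 1 and below it in replicate 2.

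**Figure D5:**
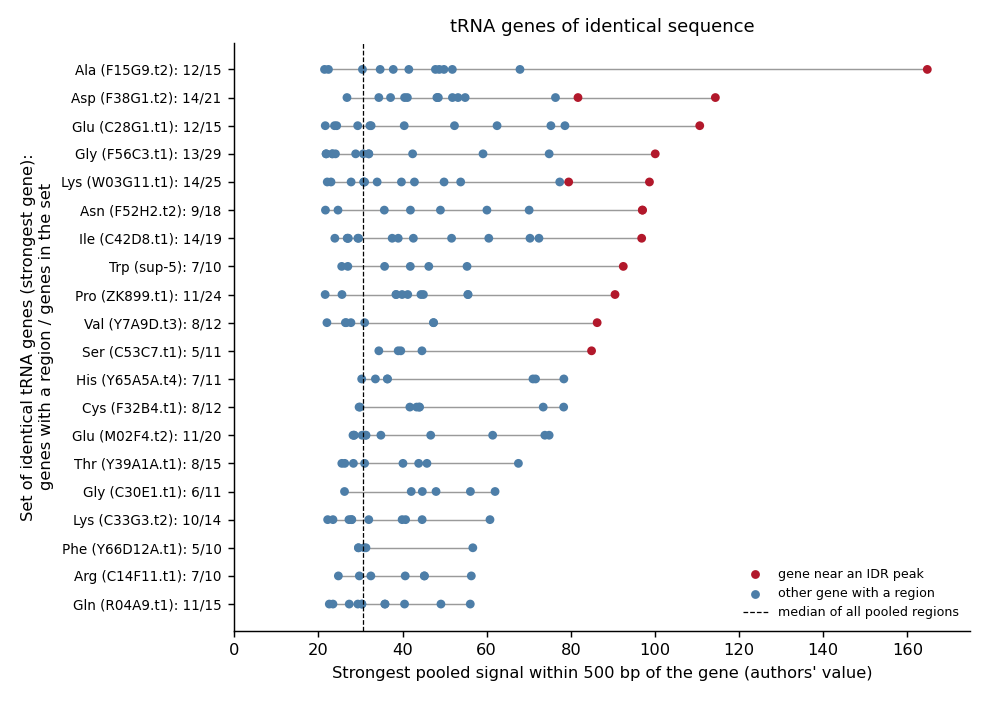
Strongest pooled signal (authors' value) of each tRNA gene with a region, in the 20 sets of at least 10 genes of identical sequence; each row is a set, named by its strongest gene, with the number of genes with a region and in the set. Red points are genes near an IDR peak and the dashed line is the median of all pooled regions; the alanine set at the top runs from 21.4 to 165, and its highest point is the region with its summit in F15G9.t1, a neighbour of F15G9.t2 with other letters.

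Chromosome X held 151 of the 401 tRNA-near regions, 37.7% (32.9 to 42.6%), against 16.6% of all pooled regions and 45.1% of tRNA genes. Of the 23 IDR peaks near tRNA genes, 15 were on X, 9.93% of the 151 tRNA-near regions there (5.67 to 15.9%), against 8 of 250 on the autosomes, 3.20% (1.39 to 6.21%). Over all pooled regions the IDR shares were 1.02% on X and 1.16% on the autosomes. The 15 include the 2 overlapping regions at F15G9. Within 100 bp of a gene lay 103 of the 151 on X and 140 of the 250 on the autosomes. Windows with over 5% repeated words, described in the next paragraph, made up 58.9% on X and 45.6% on the autosomes. The part of these differences in the count on X was not tested. The medians were close, 35.8 on X and 35.6 on the autosomes, and a q-value of at most 0.05 was reached by 25 of 151 on X and 31 of 250 on the autosomes. Over all pooled regions that q-value was reached by 3.97% on X and 4.32% on the autosomes. Within 100 bp of a gene, the strongest regions of replicate 1 included 15 of 97 regions on X (8.92 to 24.2%) and 10 of 113 on the autosomes (4.33 to 15.7%). Those of replicate 2 included 10 of 101 on X (4.85 to 17.5%) and 6 of 123 on the autosomes (1.81 to 10.3%). The share among the strongest regions was higher on X in both replicate lists, but the intervals overlap within each list. In the same regions, a q-value of at most 0.05 was reached in replicate 1 by 23.7% on X and 23.9% on the autosomes. In replicate 2 it was reached by 17.8% on X and 9.76% on the autosomes.

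Repeated sequence moved with these values. In the window of 201 bp about the summit, over 5% of words of 36 letters occurred more than once in the genome in 203 of the 401 tRNA-near regions, 50.6% (45.6 to 55.6%), against 9.18% of all pooled regions. Those 203 had a median signal of 41.1 with 19 IDR peaks. The other 198 had 30.5 with 4 IDR peaks, 2.02%, and 12 regions at a q-value of 0.05, 6.06%. All pooled regions with at most 5% repeated words also had a median of 30.5, with 1.06% IDR peaks and 4.18% at that q-value. Distance and repeats overlap, because the repeated words are mostly the tRNA genes: within 100 bp the repeated share was 79.4%, from 101 to 500 bp 6.33%. Within 100 bp of a gene, the 50 regions with at most 5% repeated words had a median of 35.3, 3 IDR peaks (6.0%, interval 1.25 to 16.5%) and 7 at a q-value of 0.05 (14.0%, interval 5.82 to 26.7%). Over 500 bp from any tRNA gene, the 2552 repeated regions had a median of 29.4, with 1.33% IDR peaks and 3.72% at a q-value of 0.05. The part of repeats in the signal at tRNA genes was not tested beyond these values.

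The strongest tRNA-near regions with at least 95% unique words were those at F57F5.t1, W02H3.t1, F28H6.t1, Y7A9D.t3 and T26C11.t1. W02H3.t1, a leucine gene, had a pooled signal of 93.7, with 48.4 in replicate 1 and 47.7 in replicate 2, and its summit lay 67 bp upstream of the gene in a window with no repeated word. The window at F28H6.t1, 85 bp upstream of its gene, also had none. GC content of the windows, 43.7% on average in tRNA-near regions and 43.2% in all regions, differed little; it was 47.4% in the 23 IDR peaks near tRNA genes and 53.3% in all IDR peaks. Signal and GC content had a Spearman's rho of 0.375 across the 401 tRNA-near regions and 0.383 across all regions, a description of regions from the same libraries.

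Of 4 GATA-type sites, 3 were more frequent in tRNA-near regions than in the whole list, by a few percentage points, and TGATAG was not. The site TGATAA, read on both strands within 100 bp of the summit, occurred in 64 tRNA-near regions, 15.96% (12.5 to 19.9%), against 12.5% of all pooled regions. It occurred in 2 of the 23 IDR peaks near tRNA genes, 8.70% (1.07 to 28.0%), against 19 of all 342 IDR peaks, 5.56%. AGATAA occurred in 11.2% of tRNA-near regions (8.30 to 14.7%) against 8.41% of all. TGATAG occurred in 6.48% (4.28 to 9.36%) against 7.02%, and AGATAG in 8.98% (6.37 to 12.2%) against 5.80%. The interval of AGATAA includes the share of all regions, and that of TGATAA begins at it. At least 1 of these 4 sites occurred in 35.9% of tRNA-near regions (31.2 to 40.8%) against 29.3% of all. Within 100 bp of a gene, where the signal was highest, that share was 34.2% (28.2 to 40.5%), and from 101 to 500 bp it was 38.6% (31.0 to 46.7%). The B box letters were in 52.1% of the windows of tRNA-near regions against 8.42% of all, and in 19 of the 23 IDR peaks; these are letters of the tRNA gene itself. Regions over 500 bp from any tRNA gene that held the B box letters, 2318 in number, had a median of 30.4, with 1.55% IDR peaks and 4.96% at a q-value of 0.05, close to the list as a whole.

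Regions near the genes of other small RNAs, snoRNA and snRNA, are given for comparison, without a test. Within 100 bp of a snoRNA gene 99 regions had a median of 40.4, 19 IDR peaks (19.2%) and 30 at a q-value of 0.05, and from 101 to 500 bp 104 regions had a median of 32.9 with 2 IDR peaks. Within 100 bp of an snRNA gene, 27 regions had a median of 30.9 with 1 IDR peak, and 77.8% of their windows held over 5% repeated words, against 79.4% of the 243 windows within 100 bp of a tRNA gene. A snoRNA gene lay within 500 bp in 1 of the 401 tRNA-near regions, so the tRNA and snoRNA sets hardly overlap. The overlap with regions near snRNA genes was not counted.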

How the data were processed

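The data were ELT-4-GFP ChIP-seq from 2 biological replicates. Lists of regions in narrowPeak format were deposited on builds ce10 and ce11; the 4 ce11 lists (pooled, replicate 1, replicate 2 and IDR peaks) were used, and the ce10 lists and notes files were not. Per the notes deposited with the samples, regions were called from alignments with a control file; no source used here gives the aligner, peak caller, filters or IDR threshold. The deposited signal of a region is on an unstated scale and was not rescaled between lists. The q-values were taken from the deposited column of −log10 q. The deposited offset column gave the summit. Sequencing depth is unknown, which limits how far a strong region can be told from a deeply covered one.

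Each summit was placed against the tRNA genes of the Ensembl annotation, release 115, of WBcel235, the assembly of ce11; every pooled region ended inside its chromosome. Names and amino acids came from the RefSeq annotation, which matched all 612 tRNA genes and gave 607 of them an amino acid. Lists were matched by an overlap of at least 1 bp, taking the strongest of several matches. Repeated words of 36 letters (50 as an alternative), GC content and motifs were read in the 201 bp about the summit, motifs on both strands. Motif letters are spelled out with their values; sites of different motifs can overlap. Printed genes were limited to those that share no word of 24 letters with chromosome I. Shares carry exact Clopper-Pearson 95% intervals for counting only; no p-values were computed. Scripts ran in Python 3.11.15 with numpy 2.4.6, pandas 2.3.3 and scipy 1.17.1 and were checked on simulated regions.

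The regions named are the IDR peaks near tRNA genes, members among the strongest of both replicate lists, the 5 strongest with at least 95% unique words, and tRNA genes grouped by amino acid and identical sequence. Single genes named for a match in 1 replicate list, and the copies without a region, were chosen after their values were seen. The members and lists were chosen with earlier results of these data known. Alternatives were other distances, merged or unique regions, single replicate lists, other overlaps, q-values, word lengths and motif windows. The values at 1 further gene are not reported here.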

Additional observations from a re-analysis of the deposited data

How the results depend on the processing

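The 10 results were set against 15 alternatives, and 38 of 75 values moved by less than the counting interval, or for the median signal by less than the SD of the replicate medians, or for the number of regions by less than 1.5 times. Among the 38, the share of summits inside the nearest tRNA gene only equals the main value by definition and was not recomputed. With summits within 250 bp the median signal was 38.0, 49.7% of tRNA genes had a region, 35.6% of summits were inside a gene and 58.8% of windows were repeated. Within 1000 bp these were 33.5, 69.0%, 23.4% and 41.4%. Merging overlapping regions gave a median of 39.6 and 57.8% repeated. Windows with at least 95% unique words left 198 regions, with a median of 30.5, against 30.5 over all 27245 pooled regions with such windows. IDR peaks made up 2.02% (0.553 to 5.09%) of the 198, against 1.06% of all such regions. A q-value of 0.05 was reached by 6.06% (3.17 to 10.3%), against 4.18%. Both intervals include the share of all such regions. These 198 left 29.9% of genes with a region, with 31.3% on X and 2.53% inside a gene. Within 100 bp, chosen after seeing the data, 243 regions had a median of 40.6, 9.05% IDR peaks, 21.0% at a q-value of 0.05, 39.4% of genes with a region, 49.4% inside a gene and 79.4% repeated. A q-value of 0.01 kept 5.24%, against 0.93% of all. An overlap of 50% of both regions left 60.6% matched in both replicates, against 45.3% of all. Repeats over 20% held 38.2%, and words of 50 letters 42.6%. TGATAA occurred in 8.98% of windows of 50 bp each side (6.27% of all) and 37.2% at 250 bp (30.7% of all), and any of 4 sites in 35.9%.

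In the list of 1 replicate alone the number of tRNA-near regions ran from 330 to 391. The median signal, on that list's own scale, ran from 19.4 to 21.3. The share among the strongest regions ran from 4.09 to 8.48%, and at a q-value of 0.05 from 8.18 to 17.3%. Genes with a region ran from 53.4 to 58.0%, regions on X from 38.4 to 38.8% and summits inside a gene from 24.8 to 27.6%. Repeated windows ran from 49.6 to 53.0%, and windows with TGATAA from 14.3 to 14.8%. Over all regions of the replicate 1 and replicate 2 lists, 16.9% and 16.8% were on X, and 8.80% and 9.17% were repeated. TGATAA occurred in 13.2% and 13.3% of all regions of those lists, close to its share in tRNA-near regions. The causes of the shifts between settings were not tested. No paired analysis was possible because there is 1 group. Limits are the unknown depth and signal scale, the coarse summits, the control not analysed here, and exact copies of tRNA genes, whose reads may be shared.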
